A study of Mus musculus with 2 samples.

Results

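Hypoxic tumor macrophages are here the CD45+ tumor cells that carried complement C1q transcripts, the mark of mature macrophages, together with transcripts of Hilpda, Ndrg1 and Bnip3, genes known to be induced when oxygen is short. The members were selected on their own UMI counts (UMIs are unique molecular identifiers, 1 for each captured transcript molecule). A member had 200 or more detected genes and no more than 10% mitochondrial UMIs. It had at least 10 UMIs of C1qa, C1qb and C1qc in sum and at least 5 of Hilpda, Ndrg1 and Bnip3 in sum, called the hypoxia sum below. It also had under 5 UMIs of the monocyte genes Ly6c2, Plac8 and Chil3, under 3 of the cycling genes Mki67 and Top2a, under 10 of the interferon genes Rsad2, Ifit1, Ifit2 and Ifit3, and 0 of Cd3d, Cd3e and Cd3g. This gave 1187 members among 20407 cell barcodes, 458 in the MWA library and 729 in the MWA plus TIGIT library. Oxygen itself was not measured, and the cells are called hypoxic only for these transcripts.

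The mice were male C57BL/6 of 6 to 8 weeks, and all carried MC38, a mouse colon cancer line, under the skin of both flanks. In both groups the right tumor was heated by microwave ablation (MWA) at about 300 mm3, and the immune cells were sorted from tumor tissue 8 days later, which the labels place in the left, unheated tumor. The MWA group received a control antibody according to the paper's results on tumor growth, which is not repeated there for the sequenced cells. The MWA plus TIGIT group received 200 µg per injection of an antibody that blocks TIGIT, every 3 days from day 1. TIGIT is an inhibitory receptor of T and NK cells. The injections number 3 in the labels and 4 in the methods. Each group was 1 library and the number of mice pooled in it is not given in the sources used here, so no difference between the groups or between classes of cells was tested, and every interval below is a 95% interval that covers counting error only.

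Cells that lack oxygen keep the hypoxia-inducible factors (HIFs), which the prolyl hydroxylases of the Egln family otherwise mark for breakdown. HIFs bind short DNA elements with the core letters ACGTG or GCGTG and switch on glucose uptake, glycolysis, growth of vessels and removal of mitochondria. Tumor macrophages in poorly perfused tissue are known for this program, for Arg1, an enzyme that uses up arginine, and for making the vessel growth factor Vegfa.

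To show what such elements look like, the promoters of a gene of the rule, Bnip3, and of 3 genes outside the rule are given, Egln3 (a HIF hydroxylase), Slc2a1 (the glucose transporter GLUT1) and Pgk1 (a glycolytic enzyme). Each runs 5′ to 3′ on the strand of the gene, from 250 bases before to 50 after a RefSeq start site, in the build GRCm38.p6, and capitals mark every ACGTG or GCGTG on either strand, overlaps included.
Bnip3: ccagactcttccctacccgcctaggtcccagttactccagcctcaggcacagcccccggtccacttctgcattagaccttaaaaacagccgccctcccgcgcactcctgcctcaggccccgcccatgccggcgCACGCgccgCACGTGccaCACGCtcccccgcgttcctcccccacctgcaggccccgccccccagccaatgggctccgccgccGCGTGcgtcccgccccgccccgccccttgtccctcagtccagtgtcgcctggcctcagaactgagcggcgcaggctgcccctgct
Egln3: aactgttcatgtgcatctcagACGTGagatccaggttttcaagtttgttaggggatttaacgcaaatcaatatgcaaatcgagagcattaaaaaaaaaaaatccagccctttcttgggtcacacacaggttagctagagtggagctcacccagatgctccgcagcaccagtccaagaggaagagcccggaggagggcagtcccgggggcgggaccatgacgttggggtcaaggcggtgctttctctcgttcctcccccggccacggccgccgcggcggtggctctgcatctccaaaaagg
Slc2a1: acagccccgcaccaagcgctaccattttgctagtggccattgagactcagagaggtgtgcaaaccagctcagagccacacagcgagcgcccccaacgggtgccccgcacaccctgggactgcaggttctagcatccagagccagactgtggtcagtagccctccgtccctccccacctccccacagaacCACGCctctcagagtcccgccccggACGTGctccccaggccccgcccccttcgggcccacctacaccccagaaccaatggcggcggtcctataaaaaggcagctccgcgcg
Pgk1: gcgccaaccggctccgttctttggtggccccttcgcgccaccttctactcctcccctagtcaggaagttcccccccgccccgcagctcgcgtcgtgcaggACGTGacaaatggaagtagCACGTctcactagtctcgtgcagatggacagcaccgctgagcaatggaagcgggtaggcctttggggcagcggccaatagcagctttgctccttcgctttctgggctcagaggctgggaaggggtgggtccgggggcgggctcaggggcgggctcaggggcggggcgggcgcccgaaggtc
Bnip3 (chr7:138909457-138909756, minus strand) held 5 matches, which begin at -117, -108, -107, -99 and -35 from the start site. Egln3 (chr12:54203825-54204124, minus strand) held 1, at -229. In Slc2a1 (chr4:119108495-119108794, plus strand) there were 2, at -61 and -36, and Pgk1 (chrX:106186850-106187149, plus strand) held 2, at -150 and -131. These letters are common: 43.8% of all 32851 promoters of the table held a match, and so did at least 1 promoter of 69.9% of the 2036 genes with a promoter among those compared below. The match is a description of the sequence and not evidence of binding. Hilpda held matches in both of its promoters, while Ndrg1 and Ero1l had no entry and are named only.

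The MWA library held 10217 barcodes and 66152465 UMIs, the MWA plus TIGIT library 10190 barcodes and 78751205 UMIs, and the barcode medians were 5627 and 6586 UMIs. After the limits on genes and mitochondrial UMIs 10037 and 9913 barcodes were kept. The libraries shared 37 barcode sequences, none of them in a member.

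Hypoxic macrophages made up 4.56% (4.16 to 4.99) of the kept barcodes in the MWA library and 7.35% (6.85 to 7.89) in the MWA plus TIGIT library. Among C1q macrophages, that is, cells that met every other condition of the rule (3175 and 3367 cells), the shares were 14.4% (13.2 to 15.7) and 21.7% (20.3 to 23.1), a difference of 7.23 points (5.35 to 9.10). The difference moved with depth. Among cells of 8000 to 20000 UMIs the shares were 15.5% and 23.6%, a difference of 8.04 points. When every barcode was thinned to 5000 UMIs and shallower barcodes were left out, the shares of C1q macrophages were 8.64% (7.66 to 9.70) and 10.05% (9.06 to 11.1), and these intervals overlapped. Among barcodes of at most 5000 UMIs the order turned, with 5.88% in the MWA library and 4.74% in the MWA plus TIGIT library, on 28 and 17 members.

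**Figure D1:**
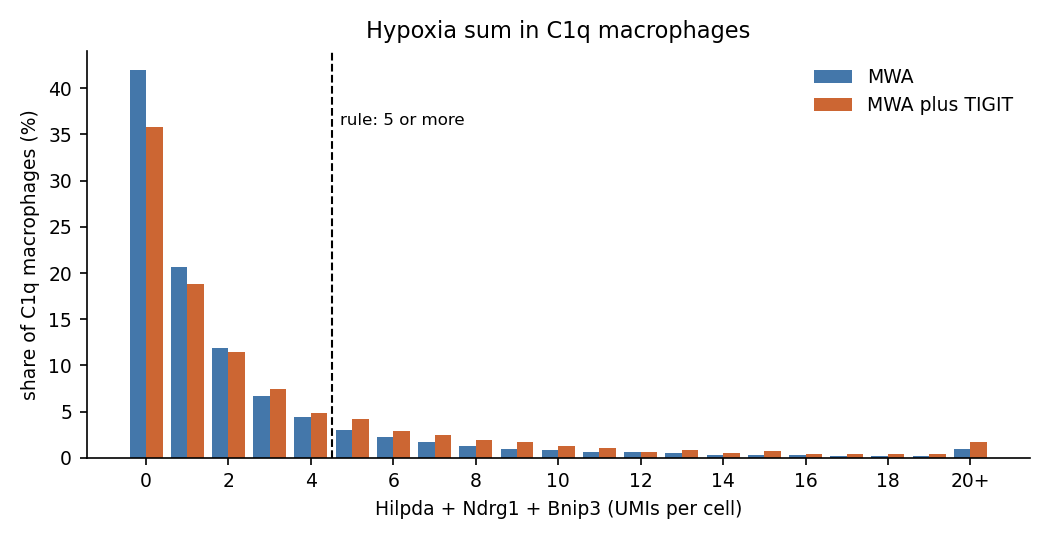
Share of C1q macrophages (%, y axis) at each hypoxia sum (UMIs of Hilpda, Ndrg1 and Bnip3 per cell, x axis, 20 and more joined) in the MWA and the MWA plus TIGIT library. The dashed line is the limit of the rule, and the counts fall across it without a gap.

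The hypoxia sum fell smoothly across the limit. Just outside it, 140 cells of the MWA library and 165 of the MWA plus TIGIT library had a sum of 4, and just inside it 95 and 140 cells had a sum of 5. The median sum of the members was 8 UMIs in both libraries, and the highest was 35 and 46. A sum of at least 10 was reached by 36.03% and 38.96% of the members, and a sum of at least 20 by 30 and 58 cells. Members are thus the upper part of a continuous range of counts.

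All 3 genes of the sum contributed. Bnip3, which tags mitochondria for removal, had a UMI in 93.4% and 95.9% of the members, and its level was 466 CPM and 483 CPM (UMIs of a gene per 1000000 summed UMIs of the cells). Hilpda, which slows the breakdown of lipid droplets, had a UMI in 81.2% and 75.03% and stood at 459 CPM and 340 CPM. Ndrg1, a stress gene, had a UMI in 54.8% and 53.5%, at 132 CPM and 117 CPM. Only 12.9% and 14.0% of the members were chosen by 1 of the genes alone, and 42.4% and 38.4% had all 3.

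When each gene was left out of the choice, it was still higher in the cells that the other genes picked. Hilpda stood at 272 CPM in MWA cells with at least 3 UMIs of Ndrg1 and Bnip3 against 44.3 CPM in cells with 0, a ratio of 6.15 (5.57 to 6.79). In the MWA plus TIGIT library the levels were 215 and 29.6 CPM, a ratio of 7.24 (6.501 to 8.08). For Ndrg1 the ratios were 8.24 (6.69 to 10.2) and 9.62 (7.78 to 12.01), and for Bnip3 4.44 (4.11 to 4.80) and 4.62 (4.35 to 4.91). Depth was not matched in these ratios, and the genes overlapped only in part, as the shares above show.

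Macrophage markers were present in the members. Of 12 macrophage markers outside the rule, Adgre1, Csf1r, Cd68 and Apoe among them, 11 reached 50 CPM in the members, and the list summed to 29128 CPM and 36467 CPM. The summed level was lower than in hypoxia-low macrophages, the C1q macrophages with a hypoxia sum of 0 or 1 (1986 and 1837 cells), where it was 37376 CPM and 43067 CPM. Apoe and Lyz2 made up most of these sums. Of 11 markers compared, 8 were lower and 3 higher in the members of both libraries. Cd68 was among the higher, with 802 and 850 CPM against 597 and 615 CPM. Epithelial markers were near 0. Of 8 listed, Krt8, Krt18 and Krt19 had no UMI in the members, Epcam had 1 and 5 UMIs, and Cdh1 made up nearly all of the sum with 7.71 and 10.9 CPM against 6.59 and 8.70 CPM. Whether these genes mark MC38 cells was not tested. The monocyte list was lower in the members, 182 and 207 CPM against 445 and 426 CPM, and most of that difference was Ccr2. F10, a coagulation factor in the same list, went the other way, with 41.2 and 56.4 CPM against 13.8 and 18.4 CPM. The 12 T cell markers summed to 129 and 127 CPM against 48.7 and 33.99 CPM. Most of that was Il7r. Without it the other 11 stood at 30.4 and 16.4 CPM against 28.6 and 19.7 CPM, and at 4771 and 5389 CPM in the libraries' own T cells. Summed levels of the neutrophil list were 60.7 and 54.1 CPM against 70.7 and 38.3 CPM. In the MWA plus TIGIT library S100a8 was at 21.5 CPM against 9.10 CPM and S100a9 at 12.9 CPM against 2.22 CPM, and their part in the other results was not tested. Ly6g had no UMI in either class. B cell markers summed to 12.3 and 11.8 CPM, and each of the lists for NK cells, dendritic cells, endothelial cells, fibroblasts, mast cells, red blood cells and tumor epithelium to at most 11.8 CPM.

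The members were then set beside the hypoxia-low macrophages of their own library. Median depth was 8525 and 10167 UMIs in the members against 7879.5 and 9772 in the hypoxia-low cells, and the median number of genes 2161.5 and 2484 against 2269 and 2601. Mitochondrial UMIs made up a median of 0.764% and 0.868% of a member and 0.996% and 1.05% of a hypoxia-low cell. A gene was compared where it reached 50 CPM in a class and 20 UMIs over both classes of each library, and genes of the rule were left out, which left 2533 genes. It was counted as higher or lower where it passed 2-fold in the same direction in both libraries. A gene under 50 CPM in hypoxia-low cells could enter only through the members, and the reverse. Among genes of low level this filter thus favors large ratios. The members had 66 such genes higher (2.61%) and 32 lower (1.26%), and 92.2% of all compared genes had the same sign in both libraries. The median ratio was negative in both libraries, as given below, which by itself favors shared signs. The share was not computed under another scaling. No gene passed 2-fold in opposite directions. The members were selected on UMIs of the same cells, so these ratios describe them and test nothing.

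**Figure D2:**
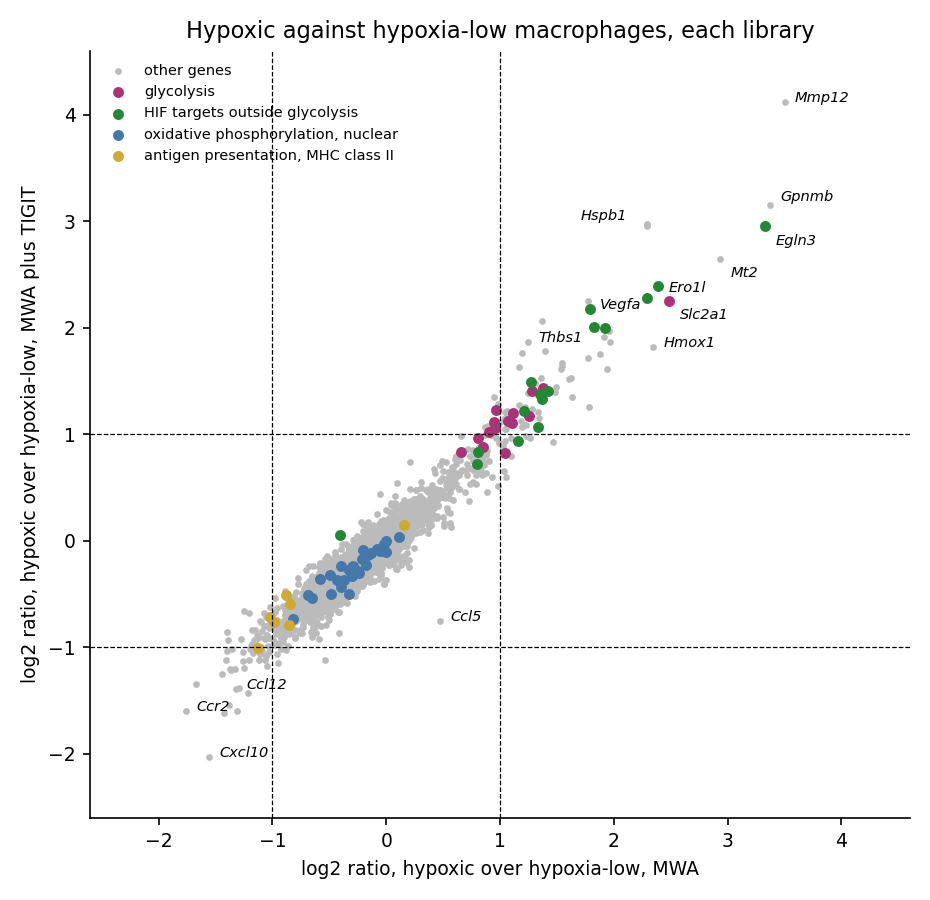
Log2 ratio of summed CPM, hypoxic over hypoxia-low macrophages, in the MWA library (x axis) and in the MWA plus TIGIT library (y axis), 1 point per compared gene (2533), with 4 gene lists in color and dashed lines at 2-fold. Points lie along the diagonal, Mmp12 is furthest up at 3.50 and 4.12, and Ccl5 stands off the diagonal at 0.47 and -0.75.

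The ratios are relative to all UMIs. Fth1, the ferritin heavy chain, alone took 33524 and 29594 CPM in the members against 13821 and 12580 CPM, and the median log2 ratio of all compared genes was -0.19 and -0.17. TMM factors, which set the bulk of the genes level, would move every ratio by 0.20 and 0.16. Of 2483 genes then compared, 102 were higher and 14 lower. For ratios of members over hypoxia-low cells, directions below hold under both scalings unless a flip is named. Levels along the hypoxia sum were not rescaled.

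Targets of HIF outside glycolysis had the highest medians of the 21 lists. Of 40 listed, 16 were compared, and 12 were past 2-fold higher with none lower. Egln3, Ankrd37, Mxi1, Selenbp1 and Ero1l reached 50 CPM in the members alone. The count and the medians were thus set in part by the filter. The median log2 ratio was 1.36 in the MWA library and 1.39 in the MWA plus TIGIT library. Egln3, the hydroxylase that HIF itself induces, stood at 66.8 and 75.1 CPM in the members against 6.66 and 9.72 CPM in hypoxia-low cells, log2 ratios of 3.33 (3.00 to 3.66) and 2.95 (2.70 to 3.20). Vegfa was at 233 and 227 CPM against 67.6 and 50.1 CPM, log2 ratios of 1.79 (1.66 to 1.91) and 2.18 (2.06 to 2.30). Both libraries thus showed the members far above their reference in the sensor and in the secreted factor. Ero1l, which supplies oxidizing power for protein folding, had log2 ratios of 2.39 and 2.39, and Ankrd37 2.29 and 2.28. Mxi1, an antagonist of Myc, had 1.823 and 2.003, and Selenbp1, whose near-identical copy may share its reads, 1.920 and 2.001. The transcript of Hif1a was at 108 and 115 CPM against 88.9 and 98.1 CPM, a small log2 ratio of 0.29 (0.13 to 0.44) and 0.23 (0.11 to 0.34). Plod1, a collagen-modifying enzyme, was the exception in the list, with -0.40 and 0.06. Among the 10 oxygen-sensing genes 3 were compared, Egln3, Egln1 (1.35 and 1.38) and Hif1a.

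Glycolysis was higher as a whole. All 16 compared genes of the 24 listed had positive ratios in both libraries, 8 of them past 2-fold, with medians of 1.06 and 1.12. Slc2a1, which lets glucose into the cell, was at 259 and 225 CPM against 46.2 and 47.2 CPM, log2 ratios of 2.49 (2.35 to 2.62) and 2.25 (2.14 to 2.37). Pgk1, which makes ATP from 1,3-bisphosphoglycerate, was at 768 and 860.3 CPM against 294 and 325 CPM, log2 ratios of 1.38 and 1.40. Ldha, which turns pyruvate into lactate, was at 1363 and 1464 CPM against 634 and 681 CPM, and Slc16a3, which exports the lactate, had log2 ratios of 1.11 and 1.20. Entry, middle and exit of the path were thus all higher. The smallest ratio was that of Eno1, 0.65 and 0.84.

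The respiratory chain lay below 0 by little. Of 29 nuclear genes for oxidative phosphorylation, 27 had negative ratios in both libraries, with medians of -0.30 and -0.25. All 12 compared mitochondrial genes were negative as well, with medians of -0.39 and -0.46. None of the 41 genes passed 2-fold. After TMM scaling the medians were -0.09 and -0.09 for the nuclear genes and -0.19 and -0.30 for the mitochondrial ones, and some single genes such as Cox4i1 and mt-Co1 turned positive. Ndufa4, at the end of the chain, was furthest down among the nuclear genes of the MWA library with -0.82, and stood at -0.74 in the MWA plus TIGIT library.

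Of the matrix remodelling list 10 genes were compared, of which Mmp12 and Thbs1 were past 2-fold higher and 3 were negative in both libraries, with medians of 0.33 and 0.33. Mmp12 (chr9:7344381-7369499, plus strand, build GRCm38), the macrophage elastase, was at 192 and 269 CPM against 17.0 and 15.5 CPM, and its log2 ratios of 3.50 (3.30 to 3.71) and 4.12 (3.94 to 4.31) were the highest of all named genes. A UMI of it was found in 22.5% and 26.5% of the members and in 4.13% and 3.59% of the hypoxia-low cells. Thbs1, a matrix protein that curbs vessels, had log2 ratios of 1.24 and 1.87. Adam8, a surface protease outside that list, was at 325 and 272 CPM against 94.9 and 83.1 CPM. Tgfbi was at -0.64 and -0.50. Fn1, fibronectin, had -0.13 and -0.19, of which the first turned positive under TMM.

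Of the genes of lipid-loaded macrophages, 10 of 12 compared were positive in both libraries. Gpnmb, a lysosomal glycoprotein, was at 91.1 and 70.2 CPM against 8.81 and 7.90 CPM, log2 ratios of 3.37 (3.09 to 3.66) and 3.15 (2.88 to 3.43). Spp1, osteopontin, was at 1083 and 1146 CPM against 389 and 436 CPM. Fabp5, a fatty acid carrier, had log2 ratios of 1.97 and 1.87, and Lgals3 had 1.55 and 1.67. Trem2, the lipid receptor that defines such cells in other tissues, did not follow, with 861 and 964 CPM against 970 and 987 CPM, and its slightly negative ratios of -0.17 and -0.03 became positive under TMM. In this list of 14, 5 were past 2-fold higher and none lower. Of the lipid handling list 6 were compared and 2 were higher, Fabp5 and Plin2. Plin2, the coat of lipid droplets on which Hilpda acts, was at 444 and 433 CPM against 152 and 139 CPM.

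Iron and metal genes were among the most abundant that differed. Hmox1, which breaks down heme, was at 534 and 453 CPM against 105 and 128 CPM, log2 ratios of 2.34 (2.25 to 2.43) and 1.82 (1.75 to 1.90). The metallothioneins Mt1 and Mt2, which bind zinc and copper, had 1.62 and 1.52 for Mt1 and 2.93 and 2.65 for Mt2. With Fth1 (1.28 and 1.23) they made 4 of 8 compared genes past 2-fold, none lower, while the iron transporter Slc11a1 was at -0.12 and -0.04 and turned positive under TMM.

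Arg1 was at 2263 CPM in the members of the MWA library and 3145 CPM in those of the MWA plus TIGIT library, against 893 and 1418 CPM, log2 ratios of 1.34 (1.30 to 1.38) and 1.15 (1.12 to 1.17). It was the only gene of 4 compared in the arginine and polyamine list that passed 2-fold in both libraries. Slc7a2, which carries arginine into the cell, followed with 1.27 and 0.97. Il1rn, the natural blocker of the interleukin 1 receptor, was at 120.0 and 140.1 CPM against 45.5 and 40.8 CPM, and was the only one of 8 inflammatory cytokine genes past 2-fold. Il1b lay lower, with 201 and 185 CPM against 318 and 270.2 CPM. Cd274, which encodes PD-L1, was at 50.4 and 63.1 CPM against 24.5 and 27.2 CPM, log2 ratios of 1.04 (0.79 to 1.29) and 1.21 (1.03 to 1.40). The other 4 compared genes of the list of TIGIT and PD-1 ligands, Lgals9, Vsir, Sirpa and Tgfb1, had ratios between -0.58 and -0.10, and Vsir turned positive in the MWA plus TIGIT library under TMM. The ligands of TIGIT itself, Pvr, Nectin2 and Nectin3, were under the limit of 50 CPM.

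Ccr2 and some of the chemokines were lower. Ccr2, the receptor that draws monocytes into tissue, was at 110.1 and 118 CPM against 373 and 357 CPM, log2 ratios of -1.76 (-1.90 to -1.62) and -1.60 (-1.70 to -1.50). Cxcl10, which attracts T cells, was at 37.6 and 34.7 CPM against 110.5 and 141 CPM, and Ccl12 at 384 and 291 CPM against 958 and 764 CPM. These were the 2 of 12 compared chemokines past 2-fold lower, none being higher. Ccl2 had -0.64 and -0.81, Ccl7 -0.80 and -0.90, and Cxcl9 -1.25 and -0.66. In all, 6 of the 12 had negative and 5 positive ratios in both libraries, the positive ones being Pf4 (0.54 and 0.27), Ccl6, Ccl9, Cxcl14 and Cxcl16. Other named genes on the low side were Iigp1 and Gbp7, both induced by interferon gamma, Fdps of sterol synthesis, Fgd2, Tmem176a, Tmem176b and Ppfia4, between -2.03 and -1.21 with Cxcl10 included.

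Antigen presentation by MHC class II was lower. In 6 of 7 compared genes both ratios were negative, with medians of -0.88 and -0.72. Cd74, the chaperone of class II, was at 3951 and 5763 CPM against 7278 and 8211 CPM, and H2-Aa at 1599 and 2069 CPM against 2871 and 3118 CPM. H2-DMb1 was the 1 gene past 2-fold in both libraries, and Cd86, a costimulator, was at 0.16 and 0.15. The 7 class I genes had medians of -0.51 and -0.30 with none past 2-fold, B2m stood at 0.01 and 0.08, and H2-D1 at -0.20 and -0.09, which turned positive under TMM.

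**Figure D3:**
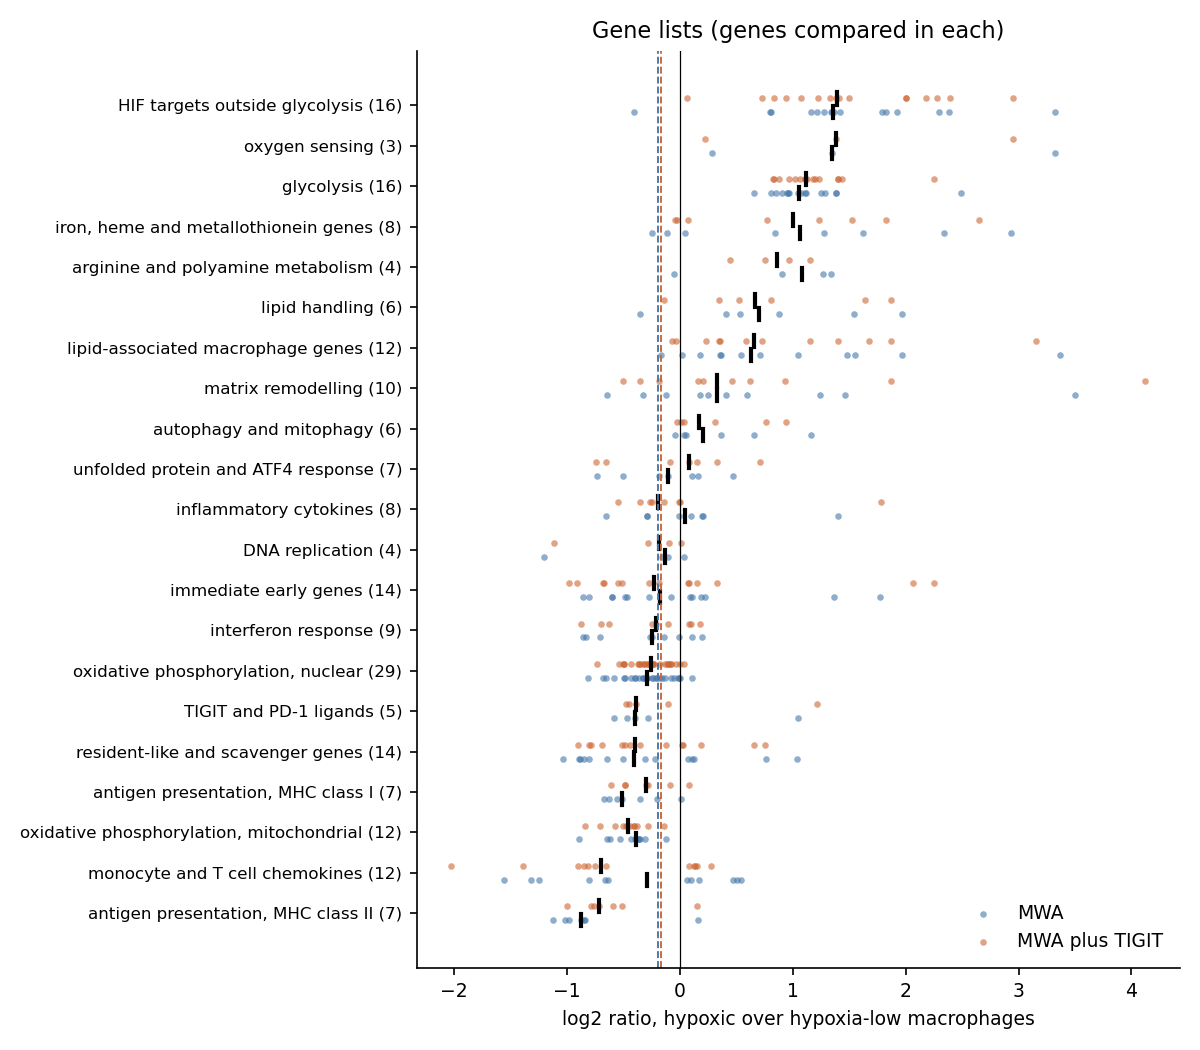
Log2 ratio of hypoxic over hypoxia-low macrophages (x axis) for each compared gene of 21 lists (rows, with the number of genes), 1 row of points per library, black bars at the medians and dashed lines at the medians of all genes (-0.19 and -0.17). HIF targets and glycolysis lie to the right, MHC class II to the left.

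Resident-like and scavenger genes lay lower by little, with medians of -0.41 and -0.40 over 14 genes and none past 2-fold in both libraries. Mrc1, the mannose receptor, was at 147 and 173 CPM against 272 and 324 CPM, while F13a1, a clotting factor subunit, was at 262 and 331 CPM against 155 and 197 CPM. The 9 interferon response genes had medians of -0.25 and -0.22, with a limit on this pathway set by the rule itself. The stress programs differed among themselves. In the list of immediate early genes the heat shock genes Hspa1a and Hspa1b, near-identical copies, were the 2 of 14 past 2-fold, with 1.37 and 2.07 for Hspa1a and 1.77 and 2.25 for Hspa1b, while Egr1 had -0.86 and -0.99. None of 7 genes of the unfolded protein and ATF4 response passed 2-fold, and the medians were -0.11 and 0.08. The first of these turned positive under TMM, as did the immediate early median of -0.18 in the MWA library. Of 6 autophagy genes none passed 2-fold in both libraries, Bnip3l being nearest with 1.16 and 0.94. Among 4 DNA replication genes Stmn1 was lower, with -1.21 and -1.12.

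Many levels followed the hypoxia sum on both sides of the limit. C1q macrophages were grouped by sums of 0 to 1, 2 to 4, 5 to 9, 10 to 19 and 20 or more, with median depths of 7879.5 to 8915 UMIs in the MWA library and 9772 to 10863 in the MWA plus TIGIT library. Egln3 stood at 6.66, 23.7, 56.1, 80.0 and 106 CPM in these groups of the MWA library, and at 9.72, 24.4, 54.4, 88.8 and 181 CPM in the other. Vegfa was at 67.6, 115, 196, 283 and 351 CPM in the MWA library, and at 50.1, 109, 177, 275 and 420 CPM in the MWA plus TIGIT library. Both genes were higher at each step. So were Slc2a1, Ldha, Pgk1, Ero1l, Mmp12, Gpnmb, Hmox1, Spp1, Cd274 and Arg1 in both libraries. Arg1 leveled off, with 2507 and 2614 CPM in the upper groups of the MWA library and 3298 and 3388 CPM in those of the other. Mmp12 did not: it reached 596 CPM and 638 CPM in cells with at least 20 UMIs.

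Other genes were lower at each step. Csf1r, the receptor that macrophages need to survive, was at 695, 552, 455, 429 and 384 CPM in the MWA library and at 710, 592, 493, 414 and 385 CPM in the MWA plus TIGIT library. Apoe, Ccl2, Ccl12, Il1b, Cxcl9 and Cxcl10 were lower at each step in both libraries as well. So was C1qa, a gene of the rule, from 5764 to 2435 CPM and from 6409 to 2902 CPM. The log2 ratio of Apoe in members over hypoxia-low cells turned from -0.14 to 0.02 under TMM in the MWA plus TIGIT library. The 44 genes followed along the sum include the 15 highest and 10 lowest named genes of the comparison with hypoxia-low cells, and C1qa. Their order was thus set in part by how they were picked. The steps were not counted over all compared genes. Of the 44 genes and the glycolysis sum, 21 were higher and 9 lower at each step in both libraries. In 14 the order held in 1 library alone, among them Ankrd37, Hspb1, Hif1a, Trem2, Mrc1, H2-Aa, Ccr2 and Cd74, and in Adgre1 it held in neither. Hspb1 went from 139 to 21.9 CPM in the upper 2 groups of the MWA library. Ccr2 stood at 84.7 and 113 CPM in the upper 2 groups of the MWA library with overlapping intervals, and Cd74 at 5929 and 6019 CPM in the groups of 5 to 9 and 10 to 19 of the MWA plus TIGIT library.

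**Figure D4:**
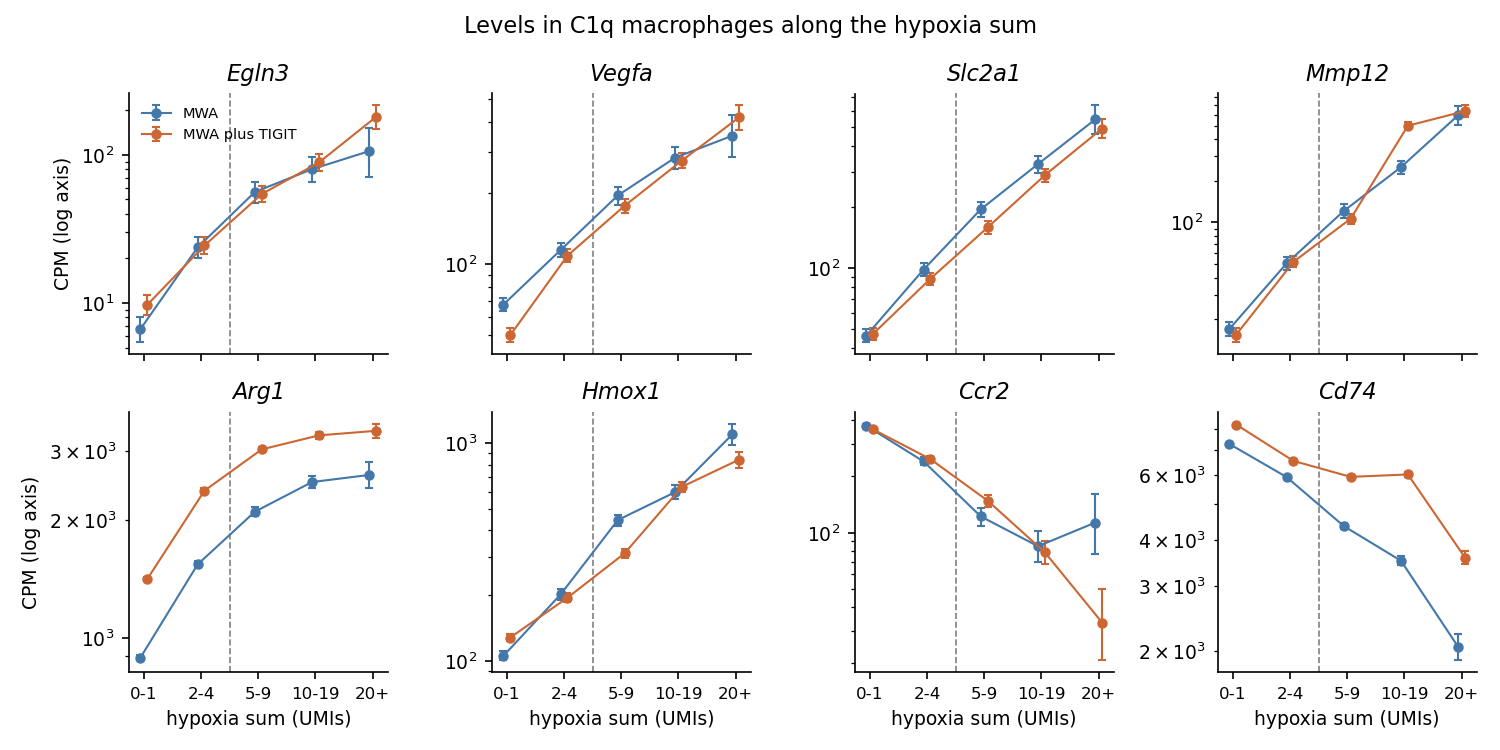
Level (CPM, log axis) of 8 genes in C1q macrophages grouped by hypoxia sum (UMIs, x axis) in the MWA and the MWA plus TIGIT library, with Poisson 95% intervals and a dashed line at the limit of the rule. Egln3, Vegfa, Slc2a1, Mmp12, Arg1 and Hmox1 climb with the sum, while Ccr2 and Cd74 are lowest at or near its upper end.

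Shares of cells with a UMI were compared at equal depth. With each cell thinned to 3000 UMIs, a Vegfa UMI was found in 47.8% and 42.9% of the members, in 14.6% and 13.5% of hypoxia-low cells and in 2.49% and 2.46% of the T cells. Slc2a1 was found in 49.3% and 49.7% of the members, in 11.8% and 13.6% of hypoxia-low cells and in 8.57% and 8.41% of T cells. For Cd274 the shares were 14.5% and 16.2%, 6.11% and 7.78%, and 8.57% and 6.81%. T cells can express Slc2a1 and Cd274 themselves, so their shares of these 2 genes are no background level. Whether the Vegfa UMIs of T cells are background was not tested. Without thinning Vegfa was found in 72.9% and 73.7% of the members against 26.1% and 22.8% of hypoxia-low cells, Slc2a1 in 74.7% and 78.1% against 26.2% and 30.7%, and Cd274 in 31.0% and 37.997% against 13.4% and 18.1%. The thinning left out 4 and 0 members, 202 and 165 hypoxia-low cells and 578 and 423 T cells, whose median depth was 3147 and 3415 UMIs.

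Because Arg1 was high in the members, they were set beside hypoxia-low macrophages with at least 10 Arg1 UMIs (444 and 689 cells), the class most like them. Arg1 then had log2 ratios of -0.09 and 0.20. Of 2505 genes compared, 50 were higher (2%) and 16 lower (0.639%), and 46 of the 50 were among the 66 genes above. Egln3 kept 2.58 and 2.36, Vegfa 1.63 and 2.15, Slc2a1 2.17 and 2.03, Hmox1 2.04 and 1.74, and Mmp12 4.14 and 5.03. Glycolysis was closer, with medians of 0.70 and 0.79 and 3 of 16 genes past 2-fold, namely Slc2a1, Pfkp and Pfkfb3. The HIF target medians were 1.08 and 1.19, and those of MHC class II -0.51 and -0.31. On the low side Ccr2 (-1.59 and -1.38) and Ccl12 (-1.24 and -1.33) stayed past 2-fold, while Cxcl10 (-0.84 and -1.06) did not in the MWA library.

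A contrasting class was hypoxia-low cells with at most 1 Arg1 UMI and at least 10 UMIs of Selenop and Mrc1 (186 and 169 cells), genes of resident-like macrophages. Of 2599 genes, 111 were higher (4.27%) in the members and 109 lower (4.19%). Vegfa had log2 ratios of 2.89 and 2.99, and Slc2a1 3.31 and 3.21. Lgals3 had 2.90 and 2.73, Adam8 3.94 and 3.02, and Fn1 1.23 and 1.24. Ccl8, a monocyte attractant, had -1.16 and -1.52. Against all 3 references 43 of the 66 genes were higher in the members, among them Vegfa, Slc2a1, Egln3, Mmp12, Gpnmb, Hmox1, Spp1, Il1rn and Il7r, and 8 of the 32 were lower, among them Ccr2, Ccl12 and Iigp1. The Arg1 class and the contrasting class are parts of the hypoxia-low class, and the members are the same each time. These overlaps, and that of 46 of 50 genes with the Arg1 class, are thus partly built in.

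The members were no uniform class. At least 10 Arg1 UMIs were carried by 62.0% (57.4 to 66.5) of them in the MWA library and 74.3% (71.0 to 77.5) in the MWA plus TIGIT library, and 0 or 1 by 9.83% and 6.45%. These shares rest on fixed counts and were not thinned, while the members' median depth was 8525 and 10167 UMIs. Cells with little Arg1 still carried Vegfa and Slc2a1. Those with 0 or 1 Arg1 UMI had Vegfa at 227 and 334 CPM and Slc2a1 at 255 and 207 CPM, against 230 and 219 CPM and 260 and 224 CPM in cells with at least 10. Depth was not matched here, with medians of 6694 and 7892 UMIs against 9222.5 and 10886. A shallow cell needs a higher level to reach a hypoxia sum of 5. Cells with at least 10 Spp1 UMIs, 30.6% and 33.3% of the members, had Mmp12 at 269 and 399 CPM against 192 and 269 CPM in all. In cells with at least 10 UMIs of Selenop and Mrc1, 13.5% and 21.9% of the members, Egln3 was at 28.6 and 42.5 CPM and Slc2a1 at 132 and 131 CPM, while C1qa was at 5455 and 6129 CPM. These cells were deeper, with medians of 11500.5 and 13495 UMIs, and a deeper cell reaches a count of 5 at a lower level.

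Within the hypoxic macrophages, TIGIT blockade could be read only as a difference between 2 libraries. Of 2349 genes compared, none was past 2-fold higher in the MWA plus TIGIT library (0%) and 1 was lower (0.0426%), and the median log2 ratio was 0.06. The 1 gene was Gm10076, named because the count is so small, at 1465 CPM in the MWA and 674 CPM in the MWA plus TIGIT library. It is a predicted gene with near-identical copies, and its log2 ratio was the same in hypoxia-low cells, -1.11 against -1.12 in the members. With hypoxia sums of at least 10, 6 of 2327 genes were higher and 3 lower, the higher ones being Ccl5, Cxcl9, Hspa1a, Hspa1b, Hspb1 and Saa3.

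Cxcl9, which attracts activated T cells and is induced by interferon gamma, was the highest. It stood at 168 CPM in the members of the MWA library and 334 CPM in those of the MWA plus TIGIT library, which gave 0.99 on the log2 scale (0.87 to 1.11) beside 0.39 in hypoxia-low cells. Its UMIs sat in few cells, since 16.2% and 21.8% of the members had any. With each cell thinned to 3000 UMIs these shares were 11.2% (8.48 to 14.5) and 13.3% (10.9 to 16.0). Before thinning, the 5 cells with the most held 45.8% and 34.9% of the Cxcl9 UMIs. Without these 5 cells of each library the ratio was 1.25, past 2-fold. Hspb1 had 0.86 (0.72 to 1.001), and 1.05 without its 5 top cells of each library. Next came Cbr2 with 0.83 and Slc7a2 with 0.76, which was less than the 1.06 of Slc7a2 in hypoxia-low cells. Wfdc17, Idh1, Gatm, Ass1, Pltp and Hsph1 followed with 0.67 to 0.57.

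On the low side Ccl2 was at 662 CPM and 428 CPM, which gave -0.63 on the log2 scale (-0.70 to -0.56) beside -0.46 in hypoxia-low cells. The chemokines Cxcl2 (-0.61), Ccl5 (-0.59), Ccl3 (-0.58) and Pf4 (-0.53) lay near it, with Srpk2, Plau, Hes1 and Dennd5b between -0.61 and -0.50. Ccl5 rested on few cells. The 5 members with the most held 58.6% of its UMIs in the MWA library, and without the 5 top cells of each library its ratio was 0.08. With hypoxia sums of at least 10 it was 1.08, so its direction was not stable. Among these genes Ccl5 (0.63) and Srpk2 (0.09) had positive ratios in hypoxia-low cells.

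**Figure D5:**
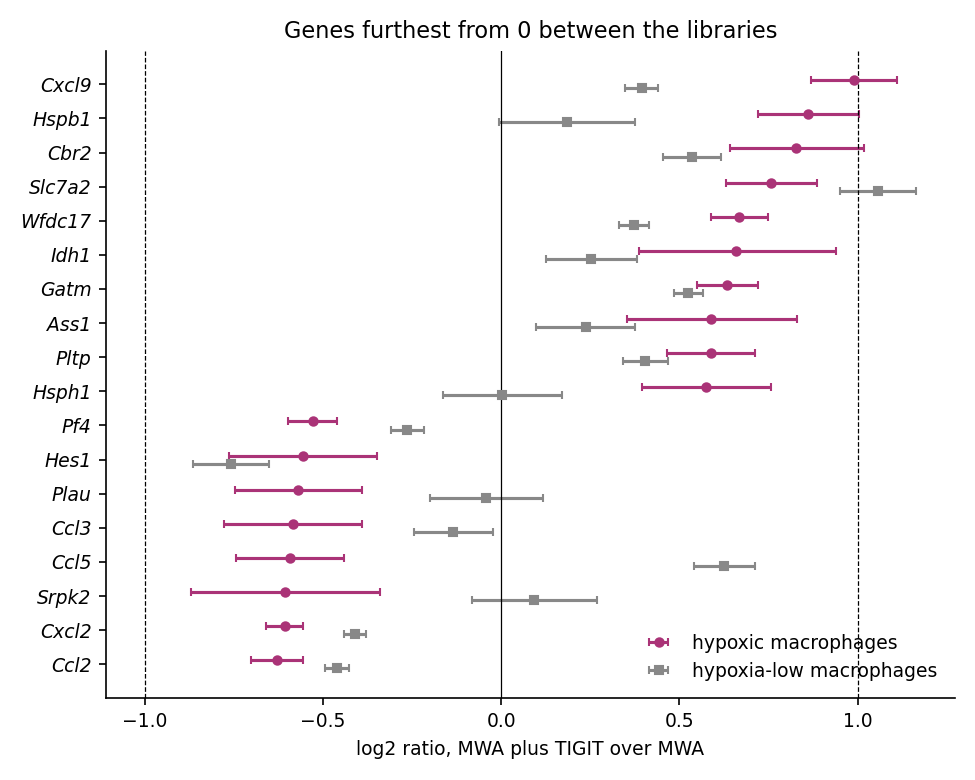
Log2 ratio of CPM, MWA plus TIGIT over MWA (x axis), for the 10 highest and 8 lowest named genes (rows) in hypoxic macrophages (circles) and in hypoxia-low macrophages (squares), with 95% intervals for counting error and dashed lines at 2-fold. The circle of Cxcl9 at 0.99 is furthest right, and the square of Ccl5 lies on the other side of 0 from its circle.

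As lists, none had a gene past 2-fold between the libraries. MHC class II had the highest median, 0.33 over 7 genes with 6 positive, against 0.12 in hypoxia-low cells. Class I had 0.23 with all 7 positive, against 0.13 in hypoxia-low cells, and resident-like genes had 0.24 with 13 of 14 positive, against 0.22. Inflammatory cytokines had the lowest, -0.37 over 8 genes with 2 positive, against -0.20 in hypoxia-low cells. Glycolysis had 0.14 and the HIF targets 0.11, close to the 0.06 of all genes. Vegfa stood at -0.04 and Slc2a1 at -0.20, both under 1.5-fold apart between the libraries. All medians of the treatment comparison would move by -0.05 with TMM factors.

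The promoter letters were counted over the same sets, against 69.9% of the compared genes with a promoter. A match was held by 40 of the 53 genes with a promoter among those higher in the members (75.5%), by 9 of 26 among those lower (34.6%), by 14 of 16 compared glycolysis genes (87.5%) and by 13 of 13 compared HIF targets (100%). Among the nuclear oxidative phosphorylation genes it was 15 of 21 (71.4%). A gene counted where any of its promoters matched. Promoters per gene were 1.5 for glycolysis, 1.23 for HIF targets, 1.34 for the higher and 1.35 for the lower genes, against 1.27. The HIF targets were listed as known targets, so their share tests nothing. The shares of the higher and of the oxidative phosphorylation genes were near that of all compared genes. Mmp12, Gpnmb, Hspb1 and Il7r, among the genes highest in the members, had no match in the windows of the table, which says nothing of the factor.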

How the data were processed

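CD45+ cells of tumor tissue were measured in 1 library of the MWA and 1 of the MWA plus TIGIT group. The authors deposited UMI counts of 32285 genes per barcode, not normalized, with barcodes called by Cell Ranger on mm10. The submitters' notes give version 6.1.1 and the matrix headers 4.0.0. The members and all gene lists were chosen with earlier results of these data known. Counts were summed over the cells of a class and library and given as CPM (Python 3.11.15, numpy 2.4.6, scipy 1.17.1, pandas 2.3.3). Intervals were exact binomial for shares, exact Poisson for levels and exact conditional binomial for ratios. Only the ratio intervals were tried on simulated data. Those were Poisson counts, the model that the intervals assume, so UMIs gathered in few cells were not covered. Genes at 50 CPM in a class and 20 UMIs in all were compared. Named were the 15 highest and 10 lowest ratios by the smaller size over both libraries, the 10 highest and 10 lowest between libraries, and list members, leaving out predicted and mitochondrial genes. 1 gene that the rule names is not reported here. T cells were barcodes with at least 3 Cd3 UMIs and no C1q. Alternatives used scanpy 1.11.5 for doublet scores and edgeR 4.0.16 for TMM factors. No doublets were removed in the main values. Gene coordinates came from GENCODE on the same build, with 32158 of 32285 identifiers matched, and promoters from RefSeq. Aldoa and Ddit3 have 2 rows each, and the first was used. The depth per class sets the intervals, and no interval covers the spread between mice.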

Additional observations from a re-analysis of the deposited data

Results flagged for a closer look

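Ccl5, a chemokine for T cells, lay on opposite sides of 0 in the libraries, with log2 ratios of hypoxic over hypoxia-low macrophages of 0.47 in the MWA and -0.75 in the MWA plus TIGIT library. This difference between the libraries was not tested. Members of the MWA library had a Ccl5 UMI in 25.8% of cells, and the highest cell held 115 UMIs. Without the 5 cells of each class with the most UMIs the ratios were -0.46 and -0.70, both negative. Ccl3, a chemokine of inflammation, had 0.20 and -0.25, also untested, and -0.03 and -0.38 without those cells.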

How the results depend on the processing

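No paired analysis was possible because each group is 1 library, and no replicate could be left out. Among C1q macrophages the share of hypoxic cells (14.4% and 21.7%, difference 7.23 points) was 8.64% and 10.05% (1.41 points) after thinning to 5000 UMIs, 15.5% and 23.6% (8.04 points) among cells of 8000 to 20000 UMIs, 5.197% and 8.43% (3.24 points) at a hypoxia sum of at least 10, and 5.88% and 4.74% (-1.15 points) among barcodes of at most 5000 UMIs. Of the kept barcodes (4.56% and 7.35%) it was 5.58% in the MWA plus TIGIT library after thinning, 8.27% and 13.9% in the range of 8000 to 20000 UMIs, 1.64% and 2.86% at the higher sum, and 0.637% and 0.451% under the upper limit. The 66 of 2533 genes higher in hypoxic macrophages became 114 of 2587 at the higher sum and 102 of 2483 with TMM. They were 124 of 7095 with a filter of 10 CPM and 389 of 12751 with 1 UMI. The 32 of 2533 lower genes became 122 of 2555 after thinning, 18 of 2536 between 8000 and 20000 UMIs and 119 of 2587 at the higher sum. They were 363 of 2605 under the upper limit, 16 of 2505 against Arg1 cells, 14 of 2483 with TMM and 70 of 2543 as means over cells. The filters of 10 CPM and 1 UMI gave 98 of 7095 and 308 of 12751. Between the libraries, 0 genes were higher and 1 lower of 2349 in the MWA plus TIGIT library. These became 6 and 3 of 2293 after thinning and 6 and 3 of 2327 at the higher sum. Under the upper limit (28 and 17 cells) they were 42 and 37 of 963. With 10 CPM they were 13 and 7 of 6884, and with 1 UMI 526 and 564 of 12970. Means over cells gave 1 higher of 2301, and the range of 8000 to 20000 UMIs 2 lower of 2410. Of list medians, 522 of 525 moved by less than 1.5-fold. The arginine list was 0.37 in the MWA library in that range, and -0.023 and 0.16 against Arg1 cells, where Arg1 defines the reference. Of the values of named genes past 2-fold, 0 changed direction under any alternative run, though these genes were picked for extreme ratios. Of all 560 values of named genes under the alternatives, 555 kept the main direction, and 196 lay outside the interval of the main value. Removing 835 and 831 barcodes with the highest doublet scores, 18 and 49 of them members, moved none of the shares of members or counts of genes past 2-fold beyond its limit. Leaving out the 5 top cells was chosen after seeing the data. Depth limits low genes, and the cause of the other shifts was not tested.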

Other observations

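Several genes that differed in the hypoxic macrophages were carried by few of them. Hspb1, a small heat shock protein, had a UMI in 13.3% of the members in the MWA and 13.6% in the MWA plus TIGIT library, and the 5 cells with the most held 44.7% and 36.9% of its UMIs. Mmp12 was close to this, with 29.3% and 27.7% of its UMIs in 5 cells. Hmox1 was spread, with a UMI in 78.8% and 82.9% of the members and 15.6% and 14.3% in 5 cells. Arg1 was widest, with a UMI in 96.1% and 96.6%, a median of 14.5 and 23 UMIs per member, and 5.46% and 3.99% in 5 cells.

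Il7r, the interleukin 7 receptor known from T cells, had a UMI in 40.0% and 42.7% of the members and in 10.4% and 8.44% of the hypoxia-low cells. Its level was 98.3 and 111 CPM against 20.1 and 14.3 CPM, with log2 ratios of 2.29 (2.08 to 2.51) and 2.96 (2.76 to 3.17), and it was higher at each step of the hypoxia sum in both libraries. The other T cell markers did not move with it, as given above. Clec4d and Clec4e, receptors for microbial and dead-cell glycolipids or proteins, were higher too, with 1.96 and 1.97 for Clec4d and 1.94 and 1.61 for Clec4e.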
